A study of Mus musculus with 18 samples.

Results

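The replication-dependent histone genes are the multi-copy genes that encode the H1, H2A, H2B, H3 and H4 proteins, and in the mouse they sit in 4 genomic clusters whose genes carry the prefixes Hist1h to Hist4h. Their transcripts were followed here in neonatal cardiac fibroblasts before and after the loss of regenerative capacity. Of the 55453 gene symbols in the deposited count table, 70 carry 1 of these prefixes, and the 59 with at least 1 read over the 18 libraries form the set described below. The other 11 symbols had no read in any library. The 59 genes comprise 6 H1, 15 H2A, 15 H2B, 10 H3 and 13 H4 genes, and 51 of them lie in the Hist1 cluster on chromosome 13, 4 in Hist2 on chromosome 3, 3 in Hist3 on chromosome 11 and 1 in Hist4 on chromosome 6.

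All libraries came from Tcf21-MerCreMer; Rosa-mTmG mice, labelled as C57BL/6J, that per the study's methods carried 1 copy of each allele. Tamoxifen given on postnatal day 1 switched cells that expressed Tcf21, a transcription factor of cardiac fibroblasts and their precursors, to a membrane GFP reporter, and the GFP-labeled cells of the ventricular apex were collected by sorting. The 6 groups hold 3 libraries each: un-manipulated P2 baseline and P10 baseline hearts, and hearts given a sham operation or an apical resection at either age and collected 3 days later, which are called sham +3 days or resected +3 days after the age at surgery. The 9 libraries of the P2 groups are called the P2 window and the 9 of the P10 groups the P10 window. How many pups each library pools was not given in the sources used here, so the p-values below measure the spread between libraries, which may be partly technical.

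Replication-dependent histone genes are transcribed mainly in S phase, when newly copied DNA has to be packed into nucleosomes. H2A, H2B, H3 and H4 form the nucleosome core, and H1 is the linker histone that binds where DNA enters and leaves it. Their messenger RNAs usually end in a conserved stem-loop bound by SLBP instead of a poly(A) tail, whereas replacement histones such as H3f3b and H2afz are made throughout the cell cycle from polyadenylated transcripts. The libraries were made with an oligo-dT-primed kit, which starts copying at poly(A), so the values below are the reads such a kit returns and not the total amount of histone RNA.

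The stem-loop is shown for the genes described most fully because it marks which annotated transcripts run past the usual histone end. It was searched for in the annotated transcripts as GG, any 3 bases, TT, 1 base, T, 1 base, A, 3 bases and CC, on the transcript strand, with the 6 bases of each arm able to pair, inside the first 150 bases after the stop codon. A match was present in 46 of the 67 protein-coding histone cluster genes searched and in 6 of 21810 other protein-coding genes (0.0275%), among them the replacement histone gene H2afx. The 16 bases of the match are in capitals with 5 flanking bases on each side:
Hist1h1c: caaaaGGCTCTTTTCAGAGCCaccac
Hist1h1d: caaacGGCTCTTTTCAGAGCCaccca
Hist1h1e: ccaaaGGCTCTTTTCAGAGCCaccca
Hist1h2ab: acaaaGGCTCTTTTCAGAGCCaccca
Hist1h2ae: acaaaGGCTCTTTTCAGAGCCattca
Hist1h2bg: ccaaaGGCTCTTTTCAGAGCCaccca
Hist1h3c: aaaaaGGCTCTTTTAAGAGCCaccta
Hist1h3d: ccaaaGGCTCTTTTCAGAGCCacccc
Hist1h4d: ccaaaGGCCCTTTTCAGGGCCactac
Hist1h4i: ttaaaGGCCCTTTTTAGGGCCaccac

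Of the 59 genes, 43 held the stem-loop, 11 are annotated to end within 16 bases of the stop codon, so that the search had no sequence to read, and 2 have no coding transcript. In the other 3 (Hist1h1a, Hist1h2bc and Hist2h2be) no match was found. Hist1h1a is annotated with only 48 bases after its stop codon, so most of the stretch could not be searched there. The annotation runs 840 bases past the stem-loop in Hist1h1c, 1153 bases in Hist1h1e, 770 bases in Hist1h4d and 151 bases in Hist1h2ae, but only 11 bases in Hist1h2ab. Hist1h2bc is annotated with 742 bases after its stop codon and no stem-loop in the stretch searched. In all, 24 genes are annotated to continue more than 150 bases past the stop codon (long annotated ends) and 33 to stop within that distance (short annotated ends). This limit was set after the annotation was read.

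The starts of the genes share other letters. In the RefSeq promoters (GRCm38.p6, 250 bases before to 50 bases after the start), which were matched for 51 of the 59 genes, CCAAT or its reverse complement ATTGG was present in 42 genes (82.4%) against 37.8% of the 26974 other promoters. It was present in all matched H1, H2A, H2B and H3 genes (6, 13, 12 and 8 promoters) and in 3 of 12 H4 genes. Some H2A and H2B genes, such as Hist1h2ae and Hist1h2bg, start close together on opposite strands. Their windows share bases, so a match can count for both genes. TATAAA or TTTATA was present in 31 of the 51 (60.8%) against 14.1% of the others. AAACACA or TGTGTTT, the letters of the H1 box, was present in 5 of 6 H1 promoters and in 2 of the 45 others of the set, against 7.13% of all other promoters. TATAAA ends and AAACACA starts with AAA, so matches to them can share bases, and a match describes the window only. The promoters of an H1 gene that fell with age, the most abundant H1 gene and an H4 gene are shown with every match in capitals.
Hist1h1b, chr13:21780576-21780875, minus strand: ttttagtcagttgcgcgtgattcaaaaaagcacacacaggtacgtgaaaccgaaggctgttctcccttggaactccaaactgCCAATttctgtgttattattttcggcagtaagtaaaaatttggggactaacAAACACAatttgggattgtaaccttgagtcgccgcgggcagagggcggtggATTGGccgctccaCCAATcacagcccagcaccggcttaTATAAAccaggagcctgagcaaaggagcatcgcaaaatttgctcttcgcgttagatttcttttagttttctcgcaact
Hist1h1c, chr13:23738557-23738856, plus strand: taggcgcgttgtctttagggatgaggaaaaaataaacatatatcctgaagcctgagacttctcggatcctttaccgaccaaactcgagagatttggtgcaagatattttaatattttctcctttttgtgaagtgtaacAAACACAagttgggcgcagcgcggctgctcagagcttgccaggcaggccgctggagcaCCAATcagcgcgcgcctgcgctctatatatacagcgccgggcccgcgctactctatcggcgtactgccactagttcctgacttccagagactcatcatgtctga
Hist1h4d, chr13:23581318-23581617, plus strand: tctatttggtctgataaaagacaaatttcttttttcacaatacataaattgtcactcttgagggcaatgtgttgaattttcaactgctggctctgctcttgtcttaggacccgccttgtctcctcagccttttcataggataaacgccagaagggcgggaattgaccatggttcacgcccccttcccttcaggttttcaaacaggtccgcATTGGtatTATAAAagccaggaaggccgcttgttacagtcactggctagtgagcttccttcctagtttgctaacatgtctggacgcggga

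The libraries held between 10462737 and 22980554 counts each. Markers of fibroblasts summed to between 54058 and 116802 CPM (a gene's counts scaled to a common library size) in every library, and those of macrophages, cardiomyocytes, endothelial, mural, epicardial and erythroid cells to at most 1010, 1461, 473, 2641, 57.4 and 480 CPM. The histone cluster genes took between 0.00619% and 0.0645% of a library's counts. Between 30 and 51 of the 59 genes were detected in a P2 library and between 19 and 40 in a P10 library. 1 library stood apart: P2 sham +3 days replicate 2 held 13608 histone cluster counts, the most of any library, and 13 of the 23 genes with enough counts to be tested had their highest level there.

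A few genes carried nearly all of the signal. The 5 genes with the most counts, Hist1h1c, Hist1h1e, Hist1h2bc, Hist1h4d and Hist1h2ae, held 84.8% of all histone cluster counts, and 37 of the 59 genes had fewer than 100 counts over the 18 libraries together. Per kilobase of exon, the mean level over all libraries was 34.8 CPM for Hist1h1c, 33.8 for Hist1h2ae, 27.8 for Hist1h2bc, 25.0 for Hist1h4d and 22.6 for Hist1h1e. Hist1h1b followed at 9.90 CPM per kilobase, then Hist1h2ab at 3.23 and Hist1h4i at 3.22. The most abundant H3 gene, Hist1h3c, reached 0.631 on the same scale, so no H3 gene came near the leading gene of another class.

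**Figure D1:**
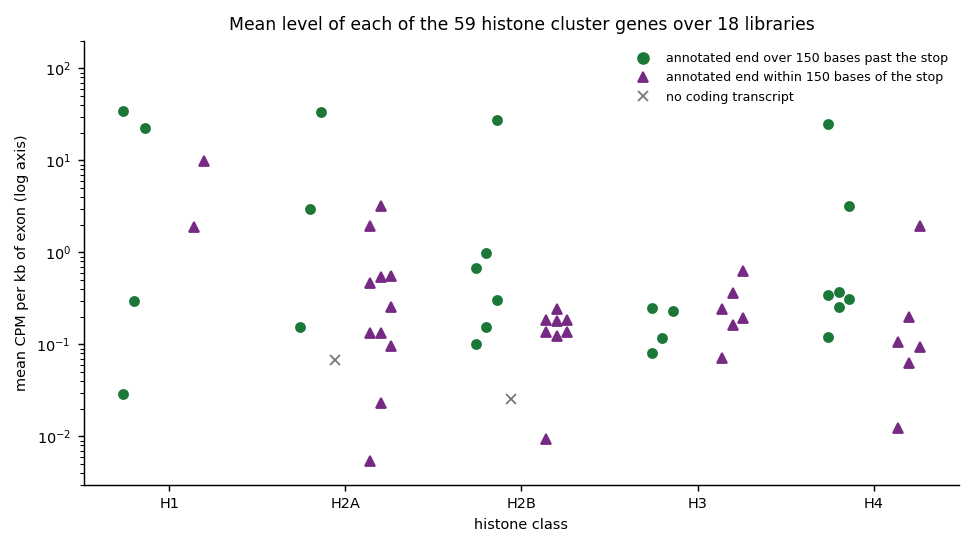
Mean level of each of the 59 histone cluster genes over the 18 libraries, in CPM per kilobase of exon on a log axis, by histone class. Circles are genes with long annotated ends, triangles genes with short annotated ends and crosses genes with no coding transcript. The 5 genes above 20 all have long annotated ends, and the highest gene with a short annotated end is Hist1h1b at 9.90.

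The genes with long annotated ends took 92.9% of the histone cluster counts and those with short annotated ends 7.12%. This follows the 5 leading genes. The median levels of the groups, 0.308 and 0.185 CPM per kilobase, were closer, and 7 of the 24 genes with long ends and 5 of the 33 with short ends lay above 1 on this scale. The H1 genes held 50.6% of all histone cluster counts, the H2B genes 16.6%, the H2A genes 16.1%, the H4 genes 15.9% and the H3 genes 0.804%.

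Summed over all 59 genes, the level was 206, 197 and 299.8 CPM in the P2 baseline libraries and 98.0, 195 and 168 in the P10 baseline libraries. In the sham groups it was 146, 627 and 319 at P2 +3 days and 65.2, 132 and 113 at P10 +3 days. In the resected groups it was 193, 329 and 252 at P2 +3 days and 184, 208 and 135 at P10 +3 days. The baseline and sham groups of the ages did not overlap, and in the resected groups the highest P10 library exceeded the lowest P2 library. The group means were 234 ± 57.1, 364 ± 244 and 258 ± 68.1 CPM at P2 and 153.6 ± 49.99, 104 ± 34.5 and 176 ± 37.1 at P10 (SD, n = 3), in the order baseline, sham and resected. Fewer cycling cells in a sample and less histone RNA that the kit can read in each cell cannot be told apart in these sorted bulk libraries.

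**Figure D2:**
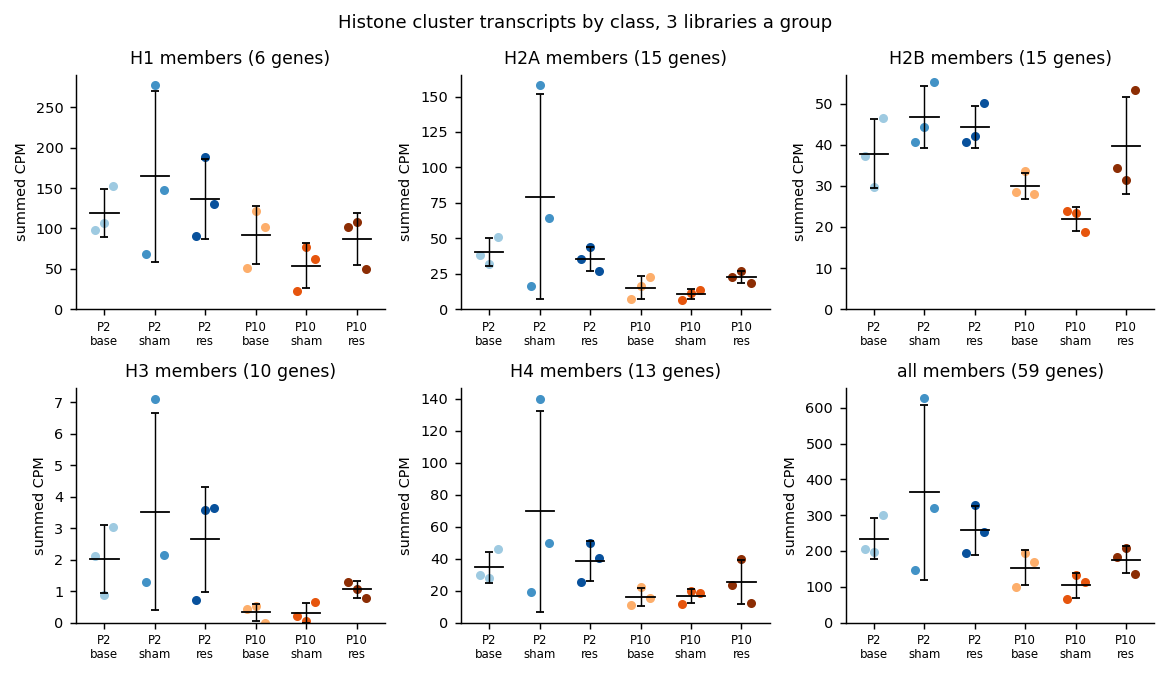
Summed CPM of the histone cluster genes of each class in each library. Points are libraries, horizontal lines the mean of 3 libraries and bars the SD, in the order P2 baseline, sham and resected (blue) and P10 baseline, sham and resected (orange). P2 sham +3 days replicate 2 is the highest point in the H1, H2A, H3 and H4 panels, at 278, 158, 7.10 and 140 CPM, but not in the H2B panel.

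The classes did not span the same range. The H2A sum ran from 16.5 to 158 CPM in the P2 window (median 38.2) and from 6.64 to 27.3 in the P10 window (median 16.3). The H4 sum had medians of 40.1 and 18.6 and the H1 sum medians of 131 and 77.5 CPM. The H2B sum, which is mostly Hist1h2bc, had medians of 42.0 and 28.4, and its highest P10 library, at 53.3, lay just under its highest P2 library at 55.2. The H3 sum had medians of 2.15 and 0.535 CPM. The sum of the genes with short annotated ends had medians of 17.2 and 4.29 CPM, and that of the genes with long ends medians of 236 and 131.

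The central comparison set the P10 window against the P2 window, that is, the age at which the heart no longer regenerates against the age at which it does. Of the 59 genes, 23 had enough counts to be tested. Of these, 10 were lower in the P10 window at an adjusted p under 0.05 and none was higher, where 6.39% of the 16170 genes tested across the transcriptome were called lower and 13.5% were called in either direction (edgeR quasi-likelihood test, Benjamini-Hochberg adjustment over all genes tested). At an unadjusted p under 0.05, 15 of the 23 were lower, where 14.7% of all genes were, and none was higher. The median log2 fold change of the 23 was -1.82, beside -0.06 for all genes tested, and 21 of the 23 estimates lay below 0. The expression filter asks for 0.512 CPM in any 3 libraries, and 10 of the 23 genes, among them Hist1h2ab, Hist1h2ai, Hist1h2be, Hist1h2bg and Hist1h3d of the 10 called, met it only through P2 libraries, which favours a lower value at P10 among them. Of the 13 genes that met it in the libraries of each window, Hist1h1b, Hist1h1d, Hist1h2ae, Hist1h4d and Hist1h4i were called lower, 11 estimates lay below 0 and the median was -0.96, where 6.71% of the 13945 such genes of the transcriptome were called lower and their median was -0.03. For Hist1h2ai, Hist1h2be, Hist1h2bg, Hist1h3c and Hist1h3d at least 1 P10 group was at 0 in all of its libraries, so their fitted log2 fold changes depend on the small count that the fit adds and are no exact folds. No histone cluster gene separated the windows without overlap, as 2.51% of all genes tested did. The 36 untested genes together had 831 counts in the P2 window and 268 in the P10 window.

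**Figure D3:**
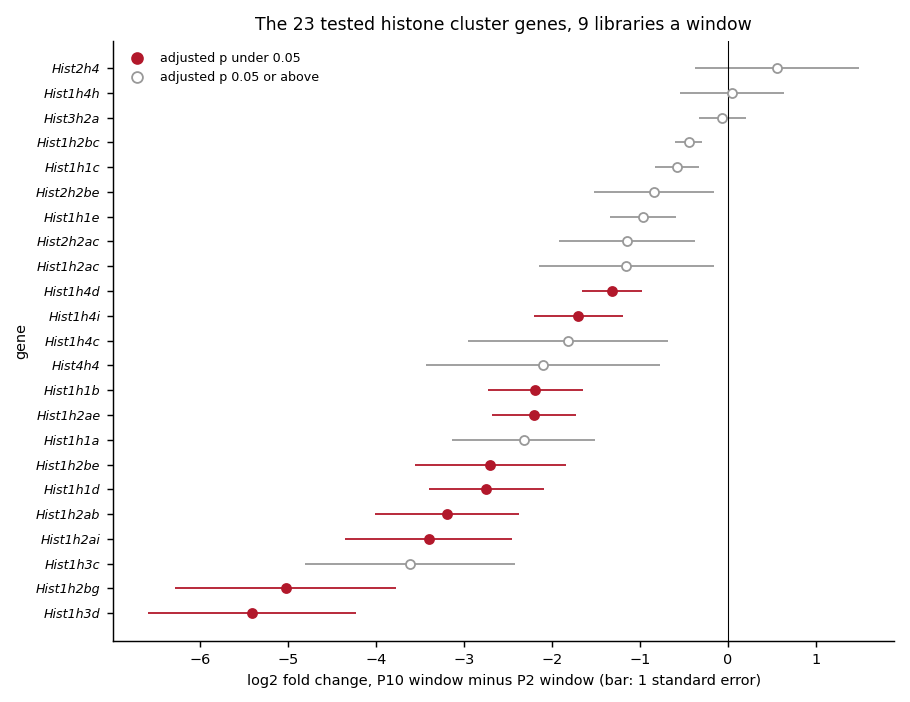
Log2 fold change of each of the 23 tested histone cluster genes, P10 window minus P2 window, with bars of 1 standard error. Filled points have an adjusted p under 0.05. The 10 filled points all lie below 0, from -1.32 for Hist1h4d to -5.41 for Hist1h3d, and only Hist2h4 and Hist1h4h have estimates above 0, at 0.56 and 0.05.

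By class, 2 of 5 tested H1 genes, 3 of 6 H2A genes, 2 of 4 H2B genes, 1 of 2 H3 genes and 2 of 6 H4 genes were called lower, where 6.39% of all genes were. Among the genes that met the filter in each window it was 2 of 4 H1, 1 of 3 H2A, 0 of 2 H2B and 2 of 4 H4 genes, and no H3 gene met it there. By annotated end, 7 of 16 genes with long ends (median log2 fold change -1.51) and 3 of 7 with short ends (median -2.32) were called lower, or 4 of 10 and 1 of 3 of those that met the filter in each window, and the difference between these sets was not tested. 6 of the 10 calls were made under all 25 alternative settings, those of Hist1h2ai, Hist1h4i and Hist1h2be were lost under some, and Hist1h3d was left untested by the stricter filter. Cardiomyocyte markers summed to between 308 and 1461 CPM in the P2 window and between 159 and 807 in the P10 window, with 5 of 10 called lower. Of the other marker lists, 3 of 8 fibroblast genes were called higher and 1 lower, 3 of 8 mural, 1 of 10 macrophage and 1 of 7 erythroid genes were called higher, and no endothelial or epicardial gene was called. Their part in the result was not tested.

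Among the linker histones, Hist1h1b, which encodes H1.5, ranged from 4.81 to 30.1 CPM in the P2 window (median 7.80) and from 0.0999 to 8.83 in the P10 window (median 1.76). It was 4.56-fold lower in the P10 window (log2 fold change -2.19 ± 0.54, SE, adjusted p = 0.0105). Hist1h1d, which encodes H1.3, ranged from 1.11 to 6.04 CPM (median 3.90) in the P2 window and from 0 to 1.87 (median 0.377) in the P10 window, with 1 library at 0. It was 6.71-fold lower (log2 fold change -2.75 ± 0.65, adjusted p = 0.00852). For both genes only the highest P10 libraries reached into the P2 range.

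The most abundant linker histone genes were not called. Hist1h1c, which encodes H1.2, ranged from 33.2 to 98.1 CPM in the P2 window (median 54.8) and from 15.2 to 80.2 in the P10 window (median 38.4). Its log2 fold change of -0.58 ± 0.25 was not called by edgeR (adjusted p = 0.136) but was with the replicate block, a fit with the replicate number as a term. Hist1h1e, which encodes H1.4, ranged from 21.4 to 143 CPM (median 44.1) and from 7.64 to 43.2 (median 34.5), with a log2 fold change of -0.96 ± 0.38 and an adjusted p of 0.101, and was called by DESeq2 and without the filter on low counts. Of the exon bases of Hist1h1e, 25.7% overlap Hist1h2be and Gm11398 on the same strand. Of its 75-base stretches, 71.6% are unique among annotated transcripts. In the baseline groups Hist1h1c stood at 46.0, 51.5 and 71.1 CPM at P2 and 35.1, 80.2 and 53.5 at P10, which overlap widely.

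Among the H2A genes, Hist1h2ae ranged from 9.71 to 132 CPM in the P2 window (median 28.6) and from 0.699 to 16.3 in the P10 window (median 6.74). It was 4.63-fold lower (log2 fold change -2.21 ± 0.48, adjusted p = 0.00434), the smallest adjusted p of the 23 genes. Hist1h2ab was lower by a log2 fold change of -3.19 ± 0.82 (adjusted p = 0.0139), from a median of 2.67 CPM to a median of 0.182. Hist1h2ai had at most 0.830 CPM in any library and no count in 5 of the 9 P10 libraries, with a log2 fold change of -3.40 ± 0.95 (adjusted p = 0.0265). Only 10.7% of the 75-base stretches of Hist1h2ai, 44.6% of those of Hist1h2ab and 65.6% of those of Hist1h2ae are unique among annotated transcripts, so their reads can be split with or lost to near-identical copies. Each also overlaps an antisense gene model on the other strand, over 35.1%, 29.2% and 19.6% of its exon bases, and the counting did not use strand.

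Hist3h2a, picked after its values were seen as the most abundant gene outside the Hist1 cluster, showed no such shift. It ranged from 4.23 to 9.04 CPM in the P2 window (median 7.10) and from 3.76 to 11.8 in the P10 window (median 5.39), with a log2 fold change of -0.06 ± 0.27 (adjusted p = 0.929). Its exons overlap those of Trim17 on the same strand and of Gm44313 on the other strand, over 33.0% of their bases together.

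Among the H2B genes, Hist1h2bc was the most abundant and one of the steadiest. It ranged from 23.6 to 48.5 CPM in the P2 window (median 35.6) and from 17.7 to 48.3 in the P10 window (median 26.4), and its log2 fold change of -0.44 ± 0.16 was not called by edgeR (adjusted p = 0.0663) but was by DESeq2, by voom and with the replicate block. Hist1h2bg and Hist1h2be were called, but at low levels. Hist1h2bg had 134 counts in the P2 window and 11 in the P10 window, with no count in 6 of 9 P10 libraries (fitted log2 fold change -5.03 ± 1.26, adjusted p = 0.0169). Hist1h2be had 158 counts in the P2 window and 79 in the P10 window, with P10 baseline at 0 in all 3 libraries, and a median of 0.605 CPM in the P2 window and 0.300 in the P10 window (fitted log2 fold change -2.71 ± 0.86, adjusted p = 0.0488). Its highest library of all, at 2.29 CPM, was P10 resected +3 days replicate 1, and its annotated exons share bases on the same strand with Hist1h1e.

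The H3 genes were near the floor of detection. Hist1h3d had 108 counts in the 9 libraries of the P2 window and 1 count in the P10 window, a ratio of 92.1 after scaling for depth with an exact 95% interval of 16.2 to 3670 that covers counting error only. P2 sham +3 days replicate 2 held 47 of the 108 counts, and the 1 P10 count lay in P10 resected +3 days replicate 1. The adjusted p of Hist1h3d in edgeR was 0.00762. Hist1h3c, the most abundant H3 gene, had 126 counts in the P2 window and 17 in the P10 window, with no count in 6 P10 libraries, and its log2 fold change of -3.62 ± 1.20 was not called by edgeR (adjusted p = 0.0582) but was by DESeq2, by voom, with the replicate block and without the filter on low counts.

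Among the H4 genes, Hist1h4d ranged from 16.1 to 129 CPM in the P2 window (median 35.7) and from 8.07 to 32.7 in the P10 window (median 15.7). It was 2.50-fold lower (log2 fold change -1.32 ± 0.34, adjusted p = 0.0146). Hist1h4i ranged from 1.25 to 7.01 CPM (median 2.84) and from 0.155 to 2.67 (median 0.845), and was 3.25-fold lower (log2 fold change -1.70 ± 0.50, adjusted p = 0.0325). The H4 genes encode the same protein from different genes, and of the 75-base stretches of Hist1h4d and Hist1h4i, 96.3% and 77.6% are unique among annotated transcripts.

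**Figure D4:**
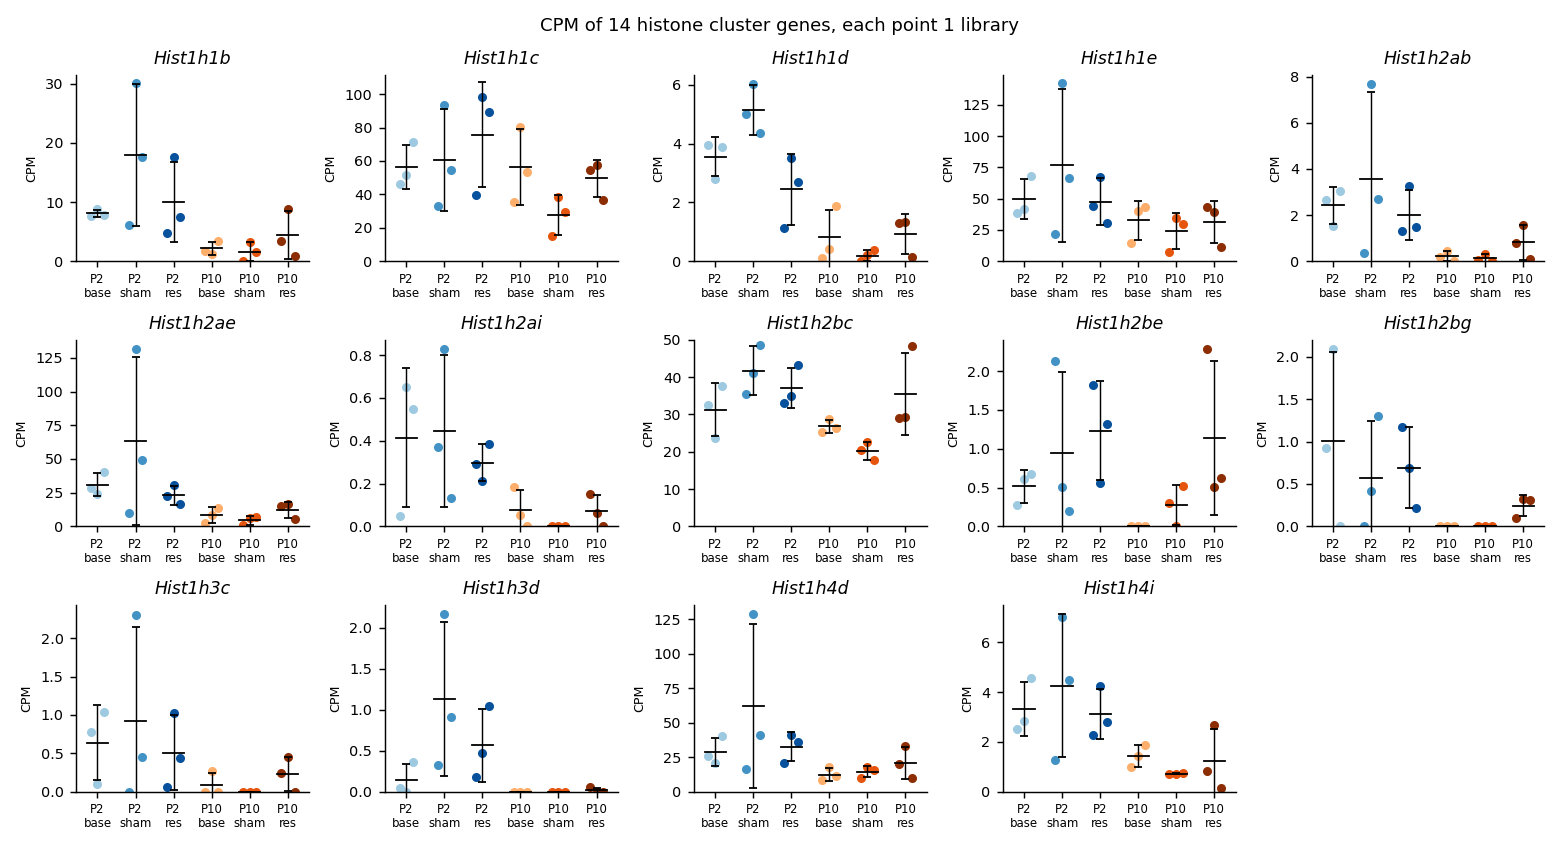
Levels in CPM of 14 histone cluster genes in each library, with the mean and SD of 3 libraries a group, in the order P2 baseline, sham and resected (blue) and P10 baseline, sham and resected (orange). In the P10 sham group Hist1h2ai, Hist1h2bg, Hist1h3c and Hist1h3d are at 0 in all 3 libraries, and in most panels P2 sham +3 days has the widest spread.

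The age comparison was then made at each stage. Between the un-manipulated P10 and P2 hearts, none of the 23 genes was called, where 4.38% of all genes were. At an unadjusted p under 0.05, 5 were lower, where 8.73% of all genes were, and none was higher. 4 of the 5 met the filter only through P2 libraries, and of the 13 genes that met it in each window 1 was lower, Hist1h2ae, where 8.83% of such genes were. The smallest adjusted p was 0.0725, that of Hist1h2be. DESeq2 called 1 of the 23 (Hist1h2be), where it called 9.89% of all genes, and voom 3 (Hist1h1d, Hist1h2bg and Hist1h2ab), where it called 22.5%. The median log2 fold change was -1.86, or -1.23 with the 3 genes at 0 in every P10 baseline library set to their bounds, beside -0.03 for all genes, and -0.61 over the 13 genes that met the filter in each window. In 9 of the 23 genes every P10 baseline library lay below every P2 baseline library, where this held for 12.1% of all genes tested, and among the 13 genes that met the filter in each window it held for 5, where it did for 12.7% of such genes. Cardiomyocyte markers summed to 1461, 1237 and 1071 CPM at P2 and 685, 521 and 657 at P10, with 10 of 10 estimates below 0 and a median of -1.19. The mean sums of fibroblast and mural markers rose from 60561 and 1292 CPM at P2 to 92363 and 1994 at P10. Those of erythroid, macrophage and endothelial markers rose from 36.3, 38.6 and 279 to 115, 106 and 331, and that of epicardial markers fell from 9.18 to 1.82. The part of these lists in the histone values was not tested.

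The libraries of 4 genes show what lies behind these counts. Hist1h1b stood at 7.64, 8.79 and 7.80 CPM at P2 and 1.76, 1.23 and 3.45 at P10. Hist1h2ae stood at 28.6, 24.1 and 40.4 CPM at P2 and 2.31, 8.67 and 13.8 at P10. Neither gene overlapped between the ages, with log2 fold changes of -1.92 ± 0.93 and -1.92 ± 0.82 and adjusted p-values of 0.276 and 0.216. Hist1h2bg had no count in the P10 baseline libraries against 65 at P2, at least 16.5-fold lower with a floor of 3 counts over the group, but 45 of the 65 counts came from P2 baseline replicate 2, without which the bound was 7.92-fold, and 1 of the P2 baseline libraries was also at 0. Hist1h2be was at 0 in all P10 baseline libraries against 30 counts at P2, at least 7.60-fold lower but not called by edgeR. These bounds and those below cover counting error only, since reads amplified by PCR are not independent molecules.

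Between the sham groups 3 genes were called lower at P10 and none higher, where 3.18% of all genes were called and 1.65% were called lower. Hist1h2ae stood at 9.71, 132 and 49.5 CPM in P2 sham +3 days and 0.699, 6.14 and 6.74 in P10 sham +3 days (log2 fold change -3.81 ± 0.88, adjusted p = 0.0232). Hist1h1d stood at 5.02, 6.04 and 4.37 CPM at P2 and 0, 0.194 and 0.377 at P10 (log2 fold change -4.70 ± 1.24, adjusted p = 0.0467). Hist1h2bc stood at 35.6, 41.2 and 48.5 CPM at P2 and 20.5, 22.6 and 17.7 at P10, 2.06-fold lower (log2 fold change -1.04 ± 0.27, adjusted p = 0.0436). The groups did not overlap for any of these 3 genes. Cardiomyocyte markers summed to 1045, 1252 and 887 CPM at P2 and 159, 807 and 273 at P10, with 9 of 10 estimates below 0 and a median of -1.47, and their part in the histone values was not tested.

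All 23 estimates of the sham comparison lay below 0, with a median log2 fold change of -2.53 beside -0.07 for all genes, and setting the 4 genes at 0 in P10 sham +3 days to their bounds left that median as it was. Over the 13 genes that met the filter in each window, which include the 3 called, the median was -1.52. At an unadjusted p under 0.05, 14 of the 23 were lower, where 8.74% of all genes were, and 8 of the 13 genes that met the filter in each window, where 8.07% of such genes were. In 10 of the 23 every P10 library lay below every P2 library, where this held for 7.61% of all genes, and in 5 of the 13, where it held for 8.03%. Hist1h3d, Hist1h3c, Hist1h2bg and Hist1h2ai had no count in P10 sham +3 days and were at least 21.95-, 18.4-, 9.36- and 9.04-fold lower there. These 4 met the filter only through P2 libraries. P2 sham +3 days replicate 2 held 47 of 68, 50 of 57 and 18 of 28 counts of Hist1h3d, Hist1h3c and Hist1h2ai, and without it their bounds were 10.8-, 3.59- and 5.13-fold. For Hist1h2bg, replicate 3 held 20 of 29 counts and the bound without it was 3.94-fold. None of these 4 was called by edgeR or DESeq2, and voom called Hist1h3d. DESeq2 and voom each called 7 of the 23 genes here, where they called 7.37% and 4.37% of all genes. Calls were lost when libraries were left out, with 0 genes called without P2 sham +3 days replicate 2, and 0 without any 1 of the 3 P10 sham +3 days libraries, while 1 was called without P2 sham +3 days replicate 3 and 4 without replicate 1. The share of all genes called fell too, from 3.18% to between 1.81% and 2.42%. The log2 fold changes stayed below 0 under every setting tried, from -5.70 to -4.12 for Hist1h1d, from -4.32 to -2.71 for Hist1h2ae and from -1.19 to -0.92 for Hist1h2bc.

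Between the resected groups no gene was called, where 0.860% of all genes were, and 1 gene, Hist1h3d, had an unadjusted p under 0.05, where 8.77% of all genes did. DESeq2 called none of the 23, where it called 3.07% of all genes, and voom 1, Hist1h3d, where it called 5.62%. The median log2 fold change was -0.77 beside -0.04 for all genes, and 21 of 23 estimates lay below 0, and the median was -0.61 over the 13 genes that met the filter in each window. Hist1h1b stood at 4.81, 17.6 and 7.49 CPM in P2 resected +3 days and 3.48, 8.83 and 0.855 in P10 resected +3 days, which overlap (log2 fold change -1.18 ± 0.90, adjusted p = 0.874). Hist1h2bc stood at 33.2, 35.0 and 43.2 CPM at P2 and 28.9, 29.2 and 48.3 at P10 (log2 fold change -0.07 ± 0.27, adjusted p = 0.997). The interaction tests below compare the age difference of the sham groups with that of the resected and of the baseline groups, and the baseline and resected stages were not tested against each other.

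Resection was set against sham surgery at each age. No gene of the transcriptome was called at either age by edgeR's quasi-likelihood test (0%), and so none of the 23. DESeq2 called 25 genes at P2 and 39 at P10 and limma voom 0 at each, with no histone cluster gene among them. At P2, none of the 23 genes had an unadjusted p under 0.05, where 4.51% of all genes did, and the median log2 fold change was -0.58, or 0.11 without P2 sham +3 days replicate 2. At P10, 3 of the 23 had an unadjusted p under 0.05, all higher after resection, where 3.43% of all genes were higher at that level. All 23 estimates lay above 0 at P10, with a median log2 fold change of 0.94, or 0.84 with genes at 0 set to their bounds, beside 0.02 for all genes. P10 sham +3 days also enters the sham comparison above, so these values and those are not independent.

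The 3 genes were Hist1h2bc, Hist1h2bg and Hist1h3c. Hist1h2bc stood at 20.5, 22.6 and 17.7 CPM in P10 sham +3 days and 28.9, 29.2 and 48.3 in P10 resected +3 days, without overlap (log2 fold change 0.81 ± 0.27, unadjusted p = 0.00797 and adjusted p = 1 in edgeR). Hist1h2bg had 0 and 11 counts and Hist1h3c 0 and 12 counts in the sham and resected groups, at least 4.27- and 4.65-fold higher after resection (3.44- and 2.86-fold without P10 resected +3 days replicate 2), both with an adjusted p of 1 in edgeR. In 3 of the 23 genes the resected libraries all lay above the sham libraries, where this held for 5.63% of all genes tested. Macrophage markers summed to 94.3, 320 and 243 CPM in P10 sham +3 days and 407, 1010 and 67.6 in P10 resected +3 days, and erythroid markers to 142, 135 and 66.9 and to 480, 295 and 84.8. Epicardial markers, which are scarce in these libraries, summed to 0, 8.80 and 4.67 and to 57.4, 11.1 and 3.96, with 7 of 7 estimates above 0 and a median log2 fold change of 4.28. Endothelial markers had a median log2 fold change of 1.27, but their sums overlapped, at 473, 377 and 254 and at 459, 301 and 343. The S phase genes had a median of 0.58, and 9 of the 43 were higher at an unadjusted p under 0.05. The part of these lists in the histone values was not tested.

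The resection effect at P10 minus that at P2 had a median log2 difference of 1.65 over the 23 genes, beside 0.03 for all genes, and no gene of the transcriptome was called in edgeR (0%) or voom, against 24 in DESeq2, none of them a histone cluster gene. At an unadjusted p under 0.05, where 2.88% of all genes passed, 3 histone cluster genes had a larger value at P10: Hist1h2bc (log2 difference 0.98 ± 0.38), Hist1h2ae (2.92 ± 1.14) and Hist1h1d (3.32 ± 1.55), each with an adjusted p of 1.00. Without the filter on low counts Hist1h2ae was called. For Hist1h2ae the P2 values behind this difference were 9.71, 132 and 49.5 CPM after sham surgery and 22.3, 30.4 and 16.2 after resection. The P2 sham +3 days libraries of Hist1h2ae lie further apart than those of any other group.

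Sham surgery was also set against the un-manipulated heart 3 days younger. At P2 no gene was called in edgeR (0%) or voom and 138 in DESeq2, none of them of the set, and none of the 23 had an unadjusted p under 0.05, where 7.60% of all genes did, with a median log2 fold change of 0.53, or -0.0025 without P2 sham +3 days replicate 2. Erythroid markers summed to 36.7, 25.0 and 47.2 CPM in P2 baseline and 51.0, 308 and 149 in P2 sham +3 days, with 7 of 7 estimates above 0, 6 of them at an unadjusted p under 0.05 and none called, and their part in the histone values was not tested. At P10 1 gene of the transcriptome was called (0.00618%), not a histone cluster gene, as none of the 121 called in DESeq2 was, and the median was -0.55. 3 of the 23 had an unadjusted p under 0.05, where 7.40% of all genes did, with Hist1h1c and Hist1h2ai lower and Hist1h2be higher. Hist1h1c stood at 35.1, 80.2 and 53.5 CPM in P10 baseline and 15.2, 38.4 and 29.3 in P10 sham +3 days (log2 fold change -1.03 ± 0.44, adjusted p = 0.648 in edgeR). The difference of these changes between the ages was called for no gene in edgeR (0%) or voom and for 102 in DESeq2, none of the set, and 2 of the 23 (Hist1h2bc and Hist1h2be) had an unadjusted p under 0.05, where 6.60% of all genes did. Surgery and 3 days of age cannot be told apart in these comparisons.

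When any difference among the 6 groups was tested at once, 1 histone cluster gene passed, Hist1h2ae (adjusted p = 0.0478), where 5.56% of all genes did. The next smallest adjusted p-values were those of Hist1h3d (0.0869), Hist1h4d (0.104) and Hist1h1b (0.129), and 9 of the 23 genes had an unadjusted p under 0.05, where 16.8% of all genes did.

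The genes that work with these histones were read from 4 lists, in the same P10 window against P2 window comparison, with no gene of any list called higher. Over all genes tested, 6.39% were called lower and the median log2 fold change was -0.06. Of 43 genes that act in S phase, 37 were lower, with a median log2 fold change of -1.73. Of 22 histone chaperones, 12 were lower (median -0.79), and of 18 genes of histone mRNA transcription and processing, 9 were lower (median -0.68). Of 11 replacement histone genes, 7 were lower (median -0.59). The S phase list shares Slbp, Nasp, Ccne2, Casp8ap2 and Chaf1b with the chaperone and processing lists.

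Among the processing genes, Slbp, whose protein binds the stem-loop shown above, ranged from 82.1 to 126 CPM in the P2 window (median 105) and from 38.8 to 89.0 in the P10 window (median 60.4). Its log2 fold change was -0.83 ± 0.16 (adjusted p = 0.00201). Ccne2 and Ccne1, the cyclins E whose kinase activates histone transcription at the start of S phase, fell by 2.67 and 2.51 on the log2 scale (adjusted p = 9.24e-05 and 0.00385). Eri1, an exonuclease that trims histone RNA, fell by 0.92 (adjusted p = 0.00306), and Srrt, a partner of the cap-binding complex, by 0.64 (adjusted p = 0.0043). Npat, the coactivator of the histone clusters, which was added after its values were seen, had a log2 fold change of -0.98 ± 0.28 (adjusted p = 0.0252).

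Among the chaperones, Asf1b, which passes newly made H3 and H4 to the assembly machinery, ranged from 44.4 to 78.7 CPM in the P2 window (median 61.7) and from 2.697 to 20.02 in the P10 window (median 6.79). It was 6.67-fold lower (log2 fold change -2.74 ± 0.28, adjusted p = 4.2e-06), and the windows did not overlap. Nasp, a chaperone of H3 and H4, and Chaf1b, a subunit of the assembly factor CAF-1, fell by 1.41 and 1.97 on the log2 scale (adjusted p = 1.23e-05 and 2.8e-05). Hat1, which acetylates new H4, and Set fell by 1.31 and 0.79 (adjusted p = 0.000136 and 0.000222).

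Among the replacement histones, Cenpa, the H3 of centromeres, was 3.56-fold lower (log2 fold change -1.83 ± 0.24, adjusted p = 4.58e-05). H2afx, the only gene of this list with a stem-loop match, was 3.14-fold lower (log2 fold change -1.65 ± 0.31, adjusted p = 0.0013). H1f0 and H2afz fell by 0.59 and 1.01 on the log2 scale (adjusted p = 0.00307 and 0.00463), and H2afy2 by 0.71 (adjusted p = 0.00709). H3f3a and H3f3b, which encode H3.3 and were added after their values were seen, had log2 fold changes of -0.31 ± 0.13 and -0.27 ± 0.10 that were not called (adjusted p = 0.127 and 0.0922). In every library the 11 replacement histone genes together had more CPM (1467 to 3482) than the 59 histone cluster genes (65.2 to 627).

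The S phase genes separated the windows more sharply than the histone cluster genes did. Their sum ranged from 2144 to 3436 CPM in the P2 window and from 808 to 1428 in the P10 window, without overlap. Rrm2, the small subunit of ribonucleotide reductase, ranged from 91.6 to 192 CPM in the P2 window and from 14.004 to 47.1 in the P10 window (log2 fold change -2.34 ± 0.20, adjusted p = 8.08e-07). Mcm6, a subunit of the replicative helicase, and Prim1, a primase subunit, were 2.83- and 4.30-fold lower (adjusted p = 1.13e-06 and 5.48e-06). Uhrf1, which maintains DNA methylation at replication, and Cdc45 fell by 2.46 and 1.86 (adjusted p = 5.67e-06 and 8.67e-06).

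P2 sham +3 days replicate 2, the library with the most histone cluster RNA, was not an S phase extreme. Its S phase sum of 2657 CPM lay between those of the other P2 sham +3 days libraries, 2536 and 2971, whose histone sums were 146 and 319 against its 627. Its fibroblast marker sum, 54058 CPM, was the lowest of all libraries, and its erythroid marker sum, 308, was the highest of the P2 window. Their part in its histone values was not tested. Without this library 7 of the 10 calls of the window comparison were made, and Hist1h2ai, Hist1h4i and Hist1h2be were lost.

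**Figure D5:**
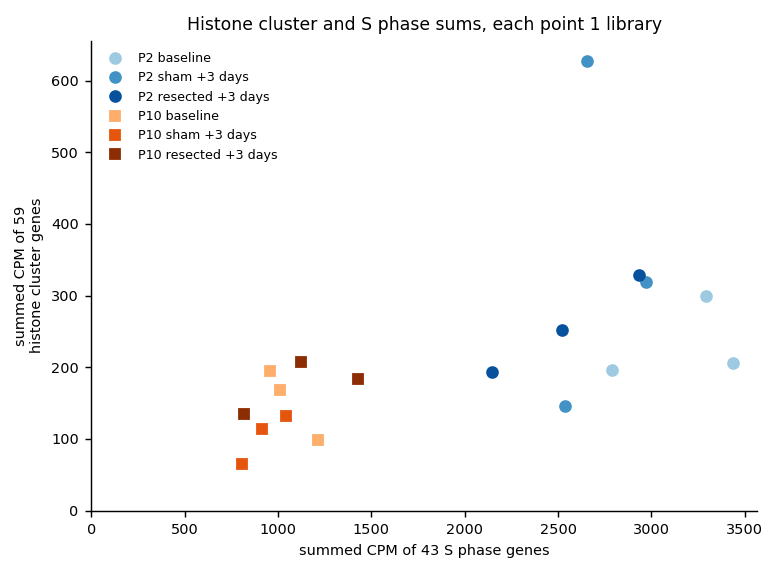
Summed CPM of the 59 histone cluster genes against those of 43 S phase genes, each point 1 library (circles P2 groups, squares P10 groups). The S phase sums of the windows do not overlap (2144 to 3436 against 808 to 1428), while the histone cluster sums do, and P2 sham +3 days replicate 2 is the single point above all others at 627.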

How the data were processed

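Per the study's methods and the submitters' processing notes, single-end 75-base reads were trimmed with fastp 0.20.0, aligned with STAR 2.7.0f to GRCm38.p6 (GENCODE M22) and counted per gene symbol with featureCounts of Subread 1.6.4, without strand. The deposited counts are whole numbers, and counting at its defaults drops multi-mapping reads, which lowers near-identical histone genes. The table held no unnamed rows and 0 columns of other samples.

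The histone cluster genes, the gene lists and the rule for named genes were chosen with earlier results of these data known. Named genes are those called in any comparison, the 8 highest per kilobase and the highest of each class. edgeR 4.0.16 (R 4.3.3) fitted all 18 libraries by quasi-likelihood after TMM scaling and its default expression filter (minimum count 10). Library totals were 10462737 to 22980554. CPM values were computed with TMM-scaled library totals. There were 10 comparisons of groups and 1 test over all groups. Gene models, stem-loops and 75-base uniqueness came from GENCODE M21 on GRCm38, the release before the study's, and promoters from RefSeq. Alternatives were DESeq2 1.42.0, voom in limma 3.58.1, another scaling, other filters, fewer libraries, a replicate block and robust fitting, the last chosen after the data were seen. Deviations from the group means correlated above 0.1 in 4, 8 and 3 of the 15 library pairs that share replicate number 1, 2 and 3 (range -0.13 to 0.38), not in every pair, so the numbers were not taken as pairs. No 2 replicates agreed within sampling noise.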

Additional observations from a re-analysis of the deposited data

How the results depend on the processing

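The log2 fold changes of the called genes kept their sign under each setting in which they were tested. The medians over the 23 genes did so too, except those of P2 resected against sham (-0.58) and P2 sham against baseline (0.53), which were 0.11 and -0.0025 without P2 sham +3 days replicate 2. The window comparison, with 10 genes called, gave 14 with DESeq2 (18.7% of all genes called), 13 with voom (28.3%), 10 with other size factors (13.6%) or no filter (9.54%), 8 with the stricter filter (15.1%), 9 with robust fitting (13.4%) and 14 with the replicate block (17.0%), and 7 to 11 when a library was left out (9.73% to 17.4%). The calls of Hist1h2ai, Hist1h4i and Hist1h2be were not made under 15, 11 and 20 of 25 settings. The stricter filter left Hist1h2ai and Hist1h3d untested. The sham comparison (3 genes) gave 7 with DESeq2 (7.37% of all genes), 7 with voom (4.37%), 5 without a filter (3.15%), 4 with the replicate block (3.93%), 2 with robust fitting (3.15%), 0 when only the libraries compared were fitted (0.908%) and 0 to 4 when a library was left out (1.81% to 2.42%). Hist1h2bc was not among the 5 without a filter, nor Hist1h1d among the 2 with robust fitting. The baseline comparison (0 genes) gave 1 with DESeq2 (9.89%), 3 with voom (22.5%) and 1 without a filter (3.996%), the resected comparison (0 genes) 1 with voom (5.62%), and the resection interaction (0 genes) 1 without a filter (0.104%). The test of any difference (1 gene, where 5.56% of all genes were called) gave 7 with DESeq2 (12.5%), 11 with voom (23.6%), 5 without a filter (7.89%) and 0 to 2 when a library was left out. The replicate block, tried because the labels number the libraries 1 to 3 in each group, is no pairing by animal. The causes of these differences were not tested. A count of 0 in a library allows up to 3 counts, which bears on the H3 genes and the 36 untested genes.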
